A study of Rattus norvegicus with 119 samples.

Results

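Igf2 and Dlk1 are 2 of the 32662 gene rows in the count tables of this series and were chosen as a pair of paternally expressed growth regulators. They were read in every table by their Ensembl identifiers, ENSRNOG00000020369 (Igf2) and ENSRNOG00000019584 (Dlk1). The tissues were the ventral mesenchymal pad (VMP), a mesenchyme that lies on the ventral side of the urethra, and the neighbouring urethra (SU), which carried smooth muscle, mesenchyme around the urethra and urethral epithelium. All came from female Wistar rats on postnatal day 0, with no treatment or genetic change. Tag-seq read 1 library per tissue from pools of dissected tissue, RNA-seq read 1 library per tissue from collagenase-dispersed cells, and single-cell RNA-seq read 49 VMP and 66 SU cells caught on a Fluidigm C1 chip. Each library and each set of cells came from pooled animals, so no comparison below has biological replicates.

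An imprinted gene is transcribed mainly from the copy inherited from 1 parent. Igf2 encodes insulin-like growth factor II, a secreted protein that promotes fetal growth by binding the receptor Igf1r and a form of the insulin receptor, and is taken up and destroyed by Igf2r. Dlk1 encodes a membrane protein with EGF-like repeats that is related to the Notch ligands but lacks the domain with which the canonical ones engage Notch, and that is also shed from the cell. It is known for holding precursor cells back from becoming adipocytes and for its expression in embryonic mesenchyme and immature muscle. Counts per gene do not tell the parental copies apart.

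In the Rnor_6.0 annotation Igf2 spans chromosome 1 from 215828102 to 215846911 and Dlk1 spans chromosome 6 from 133552821 to 133583751, both as protein-coding genes. RefSeq, on the later build GRCr8, lists 2 transcription starts for Igf2 and 1 for Dlk1, and the 250 bases before each start are shown because both genes had higher counts in VMP. They are written 5′ to 3′ in the direction of transcription, and capitals mark a match on either strand to the GC box GGGCGG, to the TATA box written TATAAA, to its looser form ATAAAA or to the CCAAT box.
Igf2, chr1:207250476-207250725, minus strand: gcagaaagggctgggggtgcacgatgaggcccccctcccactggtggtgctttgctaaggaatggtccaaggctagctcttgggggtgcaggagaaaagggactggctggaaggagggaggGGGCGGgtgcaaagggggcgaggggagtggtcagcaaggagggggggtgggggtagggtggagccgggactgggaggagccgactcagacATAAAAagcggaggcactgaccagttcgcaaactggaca
Igf2, chr1:207253981-207254230, minus strand: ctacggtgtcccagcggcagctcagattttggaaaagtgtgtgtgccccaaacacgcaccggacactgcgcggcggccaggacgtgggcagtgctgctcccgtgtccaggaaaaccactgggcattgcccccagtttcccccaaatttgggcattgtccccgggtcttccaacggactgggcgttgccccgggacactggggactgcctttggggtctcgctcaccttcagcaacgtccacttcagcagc
Dlk1, chr6:134192347-134192596, plus strand: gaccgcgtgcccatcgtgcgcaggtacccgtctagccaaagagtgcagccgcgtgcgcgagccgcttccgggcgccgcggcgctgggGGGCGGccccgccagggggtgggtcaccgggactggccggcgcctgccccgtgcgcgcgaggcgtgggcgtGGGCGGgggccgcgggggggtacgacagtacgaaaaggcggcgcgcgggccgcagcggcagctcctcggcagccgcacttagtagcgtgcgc
The first Igf2 sequence held 1 GC box and 1 loose TATA box, which began at base -39 from the start, and the second held none of the 4 motifs. The Dlk1 sequence held 2 GC boxes and none of the others. Among 33469 such upstream sequences, 30.5% held the GC box, 18.6% the loose TATA box, 12.9% the strict TATA box and 34% the CCAAT box. The Dlk1 sequence had 41 CG dinucleotides, at least as many as in 99.2% of all of them, whereas the Igf2 sequences had 7 and 15 against a median of 5. These matches describe letters only, and the counts do not say which Igf2 start was used.

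Tag-seq counts 1 short tag per transcript, next to a cutting site of the enzyme NlaIII, so its levels do not grow with gene length and can be set against each other between genes. The libraries held 7870450 counts on genes in VMP and 8215177 in SU. Levels are given as CPM, the counts of a gene over the library total times 1e6, with totals adjusted by TMM (trimmed mean of M values), and with 95% intervals that cover counting error only. Igf2 had 12067 counts in VMP and 3901 in SU, or 1475 CPM (1449 to 1502) and 494 CPM (478 to 509). Dlk1 had 6340 and 3148 counts, or 775 CPM (756 to 794) and 398 CPM (384 to 412). Both were abundant: Igf2 ranked 52nd of 14229 detected genes in VMP and 340th of 15258 in SU, and Dlk1 ranked 148th and 470th. In these Tag-seq libraries the tissues differed more in Igf2 than in Dlk1, with 1.90 Igf2 reads per Dlk1 read in VMP and 1.24 in SU.

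The log2 ratio of VMP over SU in Tag-seq was 1.58 for Igf2 (1.53 to 1.63, 2.99-fold) and 0.96 for Dlk1 (0.90 to 1.02, 1.95-fold). With 1 library per tissue, differential expression (DE) was called by the NOISeq scheme without replicates, in which q ranks the difference of a gene against simulated technical noise and is no p-value. Igf2, with a q of 0.941, passed the limit of 0.9 and was called higher in VMP, as were 8.74% of the 12203 genes tested. Dlk1, with a q of 0.855, was not called. Another 13% were called higher in SU. A call compares these libraries and not the tissues at large, and neither gene was called at a limit of 0.95. In pooled tissue, fewer cells of a type and less RNA per cell cannot be told apart.

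RNA-seq of dispersed cells gave lower totals, 4397699 counts on genes in VMP and 7007767 in SU. Igf2 had 3750 counts in VMP and 1544 in SU, or 793 CPM (768 to 819) and 237 CPM (225 to 249). Dlk1 had 1579 and 700 counts, or 334 CPM (318 to 351) and 107 CPM (99.6 to 116). The log2 ratio was 1.74 for Igf2 (1.66 to 1.83, 3.35-fold) and 1.64 for Dlk1 (1.51 to 1.77, 3.11-fold). Both were called higher in VMP, with a q of 0.939 and 0.935, along with 10.4% of the 17733 genes tested, while 11.8% were called higher in SU. Neither passed a limit of 0.95. Between assays the log2 ratio went from 1.58 to 1.74 for Igf2 and from 0.96 to 1.64 for Dlk1, and for neither gene did the counting intervals overlap.

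**Figure D1:**
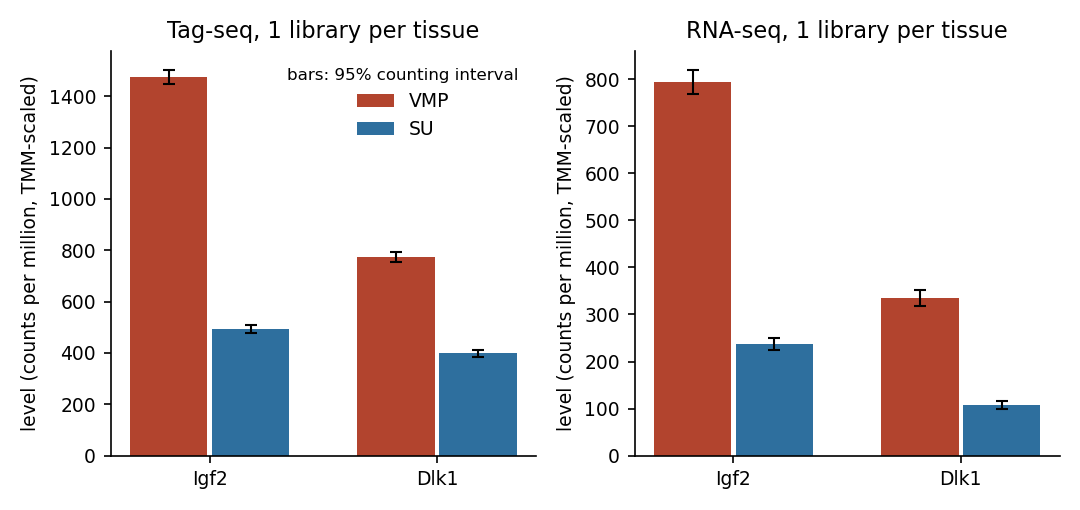
Levels of Igf2 and Dlk1 in the bulk libraries, in TMM-scaled CPM, for Tag-seq (left) and RNA-seq (right), with 1 library per bar. Error bars are 95% counting intervals. VMP is above SU for each gene in each assay, from 1475 against 494 CPM for Igf2 to 775 against 398 CPM for Dlk1 in Tag-seq.

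The assays also differed in what the SU sample held. The 10 epithelial marker genes with an identifier, among them Epcam and the keratin Krt15, summed to 9507 CPM in SU and 535 CPM in VMP by Tag-seq. All 10 were called higher in SU there, beside 13% of all genes tested. By RNA-seq they summed to 241 and 12.9 CPM, and 7 of the 10 were called higher in SU, beside 11.8% of all genes. Identifiers came from genes the study had called DE, so these markers were already chosen for a difference. In single cells 5 of the 10 were at 0 in every SU cell and 7 of the 10 in every VMP cell, the cadherin Cdh1 in both tissues, and the 10 summed to at most 68.9 CPM in a VMP cell and 133 CPM in an SU cell, whereas the 9 mesenchymal genes with an identifier summed to 3701 to 26323 CPM in VMP cells and to 5156 to 60966 CPM in SU cells. Of these, Col1a1, Col3a1 and Dcn were read in every cell of both tissues, Pdgfrb in 34 of 49 VMP and 64 of 66 SU cells, Twist1 in 13 and 46, and Thy1 in 0 and 13. The 9 skeletal muscle genes with an identifier summed to 5807 CPM in SU and 1180 CPM in VMP by Tag-seq and to 346 and 40.6 CPM by RNA-seq. In the single cells, where epithelial genes were at or near 0, the log2 ratio was 1.61 for Igf2 and 3.44 for Dlk1, against 1.58 and 0.96 in Tag-seq. What epithelium and skeletal muscle contributed to the Tag-seq ratios was not tested.

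The 4 bulk libraries were also fitted together, with assay as a blocking term, which gave log2 ratios of 1.65 for Igf2 and 1.29 for Dlk1 by edgeR's quasi-likelihood test. The spread in this fit is the disagreement between the assays, with 1 residual degree of freedom. Igf2 had an unadjusted p of 0.0139 and a Benjamini-Hochberg adjusted p of 0.329 by edgeR over 14711 genes, and Dlk1 had 0.0406 and 0.59, so neither passed 0.05 after adjustment. The same fit called 241 genes. DESeq2 gave 1.67 for Igf2 with an adjusted p of 0.00235 and 1.30 for Dlk1 with an adjusted p of 0.158. DESeq2 called 201 genes, and it gave no adjusted p for 6845. Counts were also simulated with the same spread setting for every gene and the same tissue differences in both assays. There the DESeq2 fit called unchanged genes more often than its threshold allows. The simulation left out the disagreement between the real assays. How far the DESeq2 p-values err here was therefore not tested, and they may be too small. The call on Igf2 thus depended on the tool, and the Dlk1 difference passed in neither.

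Single cells showed how these levels were spread. The cells held 248738 to 1200734 counts on genes in VMP (median 614376) and 199849 to 1488320 in SU (median 631065). Levels are in CPM of the gene counts of each cell. Igf2 in VMP cells ran from 0 to 4299 CPM with a median of 831 and quartiles of 369 and 1683, and averaged 1087 ± 948 CPM (SD over 49 cells). In SU cells it ran from 0 to 2518 CPM with a median of 105 and quartiles of 6.58 and 519, and averaged 357 ± 517 CPM (SD over 66 cells). The ranges overlapped, with 5 VMP cells above the highest SU cell, and 9 of 66 SU cells above the VMP median. Of all pairs of a VMP and an SU cell, 77.8% had more Igf2 in the VMP cell.

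Dlk1 was more uneven. In VMP cells it ran from 0 to 1789 CPM with a median of 32.2 and quartiles of 1.46 and 574, and averaged 329 ± 474 CPM (SD over 49 cells). In SU cells it ran from 0 to 466 CPM with a median of 0 and an upper quartile of 4.64, and averaged 30.3 ± 89.6 CPM (SD over 66 cells). Most SU cells thus had no Dlk1 read, while 13 of 49 VMP cells were above the highest SU cell. The ratio of means was 3.05-fold for Igf2 (log2 1.61) and 10.9-fold for Dlk1 (log2 3.44). Cells of 1 pool are not replicates of a tissue, so these ratios have no test.

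**Figure D2:**
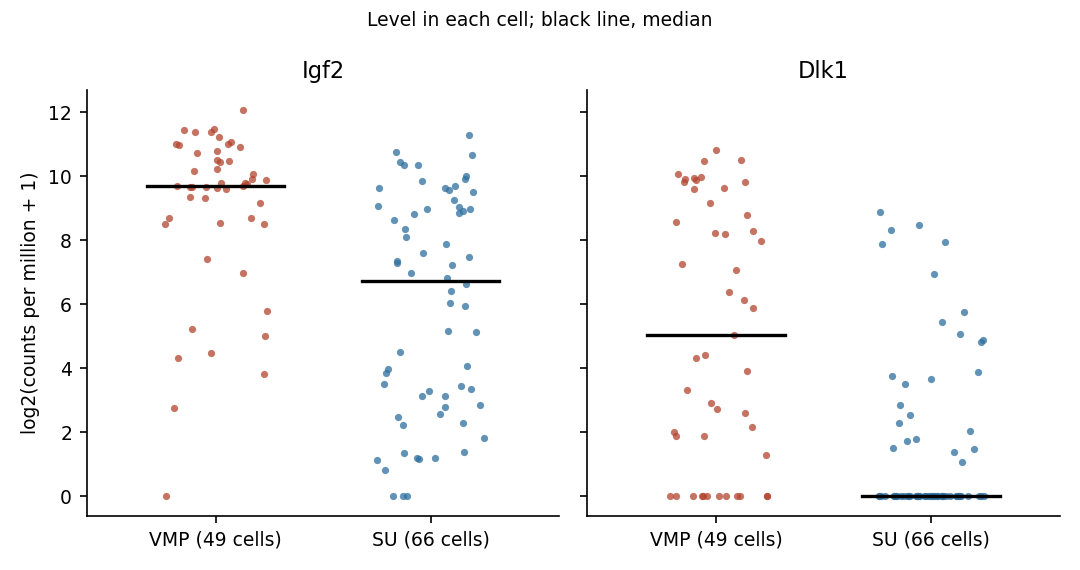
Level of Igf2 (left) and Dlk1 (right) in each of 49 VMP and 66 SU cells, as log2(CPM + 1), with a point per cell and a black line at the median. The Igf2 clouds overlap with a higher VMP median (831 against 105 CPM), and for Dlk1 most SU cells lie at 0.

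Scaled to the total count, RNA-seq of the same kind of suspension gave 853 CPM of Igf2 in VMP and 220 CPM in SU. The mean over cells was 1.27 times the RNA-seq level in VMP and 1.62 times in SU. For Dlk1 RNA-seq gave 359 and 99.9 CPM, and the cells 0.917 and 0.304 times those levels. Dlk1 in the captured SU cells was thus low against the RNA-seq library, and on this scale VMP exceeded SU by 3.44 on the log2 scale in cells and by 1.85 in RNA-seq. The 66 SU cells also rest on labels that disagree with the stated numbers, since 52 VMP and 63 SU libraries are described as sequenced against 49 and 66 labelled.

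By bands of level, 19 of 49 VMP cells had over 1000 CPM of Igf2, 22 had over 100 to 1000, 6 had over 10 to 100 and 2 had less or no read. Of the 66 SU cells, 7 were over 1000 CPM, 26 over 100 to 1000, 12 over 10 to 100, 18 at up to 10 with a read, and 3 had no read. SU cells were thus spread over all these bands. Of the 66, 9 lay above the VMP median and 21 had at most 10 CPM or no read. Dlk1 was over 100 CPM in 21 VMP and 6 SU cells, at up to 100 CPM with a read in 16 and 19, and without a read in 12 and 41.

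The 5 highest cells held 28.6% of the summed Igf2 CPM in VMP and 36.3% in SU, and 41.7% and 80.8% of the summed Dlk1 CPM. It took 11 VMP and 8 SU cells to reach 50% of the Igf2 sum, and 7 and 3 cells to reach it for Dlk1. The coefficient of variation (CV, the SD over the mean) of Igf2 was 0.872 in VMP and 1.45 in SU. Among genes with a mean of at least 100 CPM, counted from the most uneven, it ranked 1891st of 2104 in VMP, where the median CV was 1.89, and 1103rd of 1907 in SU, where the median was 1.58. By this rank Igf2 was among the more evenly expressed of the abundant genes in VMP and near the middle in SU. The ranked genes were not matched on level, and Igf2 averaged 1087 CPM in VMP and 357 CPM in SU. The CV of Dlk1 was 1.44 in VMP, 1513th of 2104, and 2.95 in SU, where its mean was too low to be ranked.

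**Figure D3:**
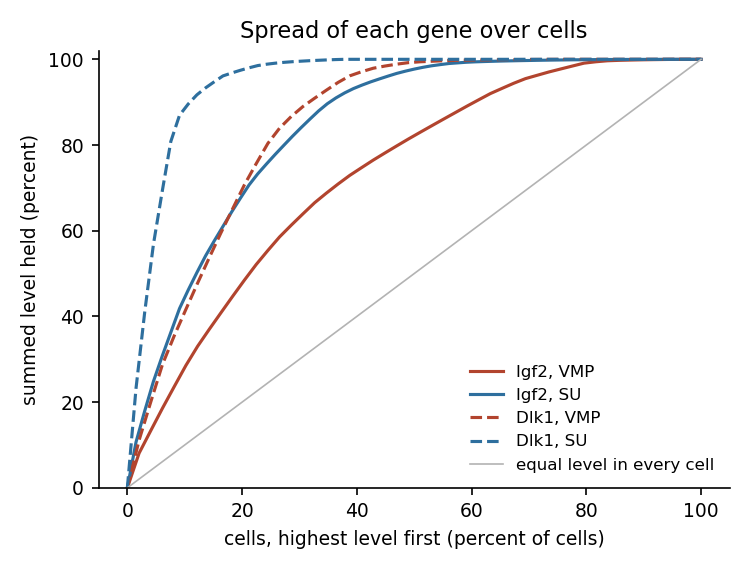
Share of the summed level (percent, in CPM) held by the cells with the highest levels, against the percent of cells taken from the highest down, for Igf2 (solid) and Dlk1 (dashed) in VMP and SU. The steepest curve is Dlk1 in SU, where 3 cells pass 50%, and the flattest is Igf2 in VMP, where 11 cells do.

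Co-detection was counted at 2 limits. With at least 1 read, Igf2 was found in 48 of 49 VMP cells (98.0%, exact 95% binomial interval 89.1 to 99.9) and 63 of 66 SU cells (95.5%, 87.3 to 99.1), and Dlk1 in 37 (75.5%, 61.1 to 86.7) and 25 (37.9%, 26.2 to 50.7). Both were found in 36 VMP cells (73.5%, 58.9 to 85.1) and 24 SU cells (36.4%, 24.9 to 49.1). Only 1 cell in each tissue had Dlk1 without Igf2. Since nearly every cell had an Igf2 read, the share with both followed the share with Dlk1.

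At 10 reads or more, Igf2 was found in 45 VMP cells (91.8%, 80.4 to 97.7) and 42 SU cells (63.6%, 50.9 to 75.1), Dlk1 in 26 (53.1%, 38.3 to 67.5) and 12 (18.2%, 9.76 to 29.6), and both in 23 (46.9%, 32.5 to 61.7) and 11 (16.7%, 8.62 to 27.9). The cells with neither were 1 in VMP and 23 in SU. With every cell thinned to the shallowest, 199849 counts, at least 1 read of Igf2 was left in 47 VMP and 53 SU cells, of Dlk1 in 33 and 18, and of both in 31 and 16. The Notch ligand gene Jag1 had a read in all 115 cells but reached 10 reads in 19 VMP and 63 SU cells, and whether single reads pass between cells of a chip was not tested. Counts at 10 reads are therefore given beside those at 1.

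Taken at 10 reads, in SU Dlk1 was found in 11 of the 42 cells with Igf2 (26.2%, 13.9 to 42) and in 1 of the 24 cells without it (4.17%, 0.105 to 21.1). The median Igf2 level was 809 CPM in the 12 SU cells with Dlk1 and 34.6 CPM in the other 54. In VMP, Dlk1 was found in 23 of 45 cells with Igf2 (51.1%, 35.8 to 66.3) and in 3 of the 4 without it, and the median Igf2 level was 1013 CPM in the 26 cells with Dlk1 and 816 CPM in the other 23. The SU cells with Dlk1 were thus mostly cells with high Igf2, and in VMP high Igf2 was found with and without Dlk1. The difference between the tissues in this respect has no test. The median depth of the SU cells with and without Dlk1 was 599778 and 636694 counts. For SU cells with and without Igf2 it was 682539 and 573205 counts, so those with Igf2 were deeper. VMP cells with the gene were also deeper, at 650822 against 534683 counts for Dlk1 and 623204 against 418592 for Igf2. What depth contributed to these splits was not tested.

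Across cells, Spearman's rho between Igf2 and Dlk1, on log2(CPM + 1), was 0.215 over 49 VMP cells (Pearson's r 0.0728) and 0.346 over 66 SU cells (r 0.398). Cells of a tissue share a pool and a chip, and with 12 and 41 cells at 0 for Dlk1 these are weak relations given as description. The correlation of either gene with the gene counts, genes detected or spike-in share of a cell was at most 0.233 in size.

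**Figure D4:**
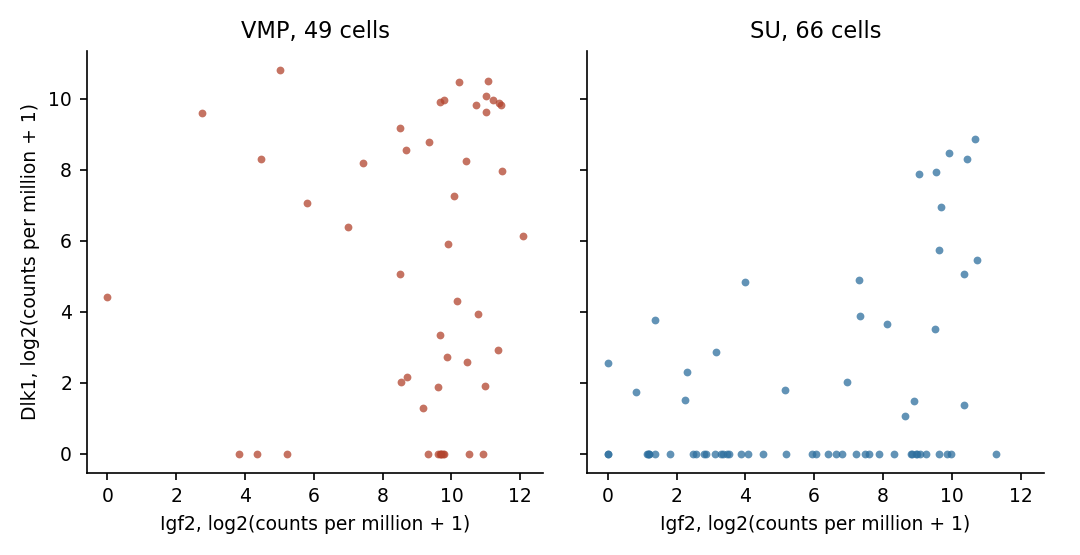
Dlk1 against Igf2 in each VMP cell (left) and SU cell (right), both as log2(CPM + 1). In SU the cells with more Dlk1 lie at the right, at high Igf2, and a row of 41 cells has no Dlk1 read; in VMP the high Igf2 cells spread over the whole Dlk1 range.

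Genes with the most similar pattern over cells were found by the mean of the rho within VMP and within SU, among 8486 genes compared, of which 1205 had a symbol in the tables used and could be named. The highest for Igf2 was Ptn, which encodes the heparin-binding growth factor pleiotrophin, at 0.384 and 1st of all genes. It averaged 1167 CPM in VMP and 283 CPM in SU cells. Among genes with a symbol, Islr, a leucine-rich repeat protein of mesenchyme, was next at 0.326, but 10th of all genes. Then came the phosphatase gene Ptpn12 at 0.317 (16th), the secreted Wnt inhibitor Sfrp1 at 0.306 (19th) and the cytokine gene Clcf1 at 0.302 (20th). The genes between these ranks had no symbol and could not be named. Dlk1 stood 40th for Igf2, at 0.280.

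For Dlk1 the highest named genes were Map7d3, which encodes a microtubule-associated protein, at 0.297, the histone demethylase gene Kdm1b at 0.282, Igf2 itself at 0.280 and 20th of all genes, Jup, which encodes plakoglobin, at 0.278, and the kinase scaffold gene Akap12 at 0.276. The highest of all 8486 reached 0.368, and the median was -0.013. How high unrelated genes would reach among so many was not tested, for Dlk1 or for Igf2. Kdm1b had a read in only 15 VMP and 14 SU cells, and Map7d3 averaged 3.05 CPM in SU cells. When cells were scaled by their spike-in reads, 3 of the 5 genes named for Igf2 and 4 of the 5 for Dlk1 stayed among the top 5, and after thinning 5 and 2 did, so the order below Ptn is loose.

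The other genes of these pathways were taken from lists of imprinted genes, of the insulin-like growth factor (IGF) axis and of the Notch pathway. A symbol could be tied to an identifier only where the study had called the gene DE in an assay, so the counts below describe genes already chosen for a difference and leave most list members unnamed. Including Igf2 and Dlk1, 23 genes of these lists were tested in both bulk assays. Of these, 13 had the same sign in both, and Igf2 was the 1 gene called higher in VMP in both assays. Igf1r and Hes1 were called higher in SU in both, and the amino acid transporter gene Slc38a4, imprinted in rodents, was called in opposite directions. The same counts over both assays were not made for all genes, so these describe the named genes and not the lists.

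Among the other imprinted genes, 8 of 45 listed had an identifier. In Tag-seq 4 of 8 tested were called higher in VMP and 2 in SU, where 8.74% and 13% of all genes tested were, with a median log2 ratio of 0.92 against -0.02 over all genes. In RNA-seq 1 of 7 was called higher in VMP and 2 in SU, where 10.4% and 11.8% of all genes were, with a median of -0.07 against 0.02. Cd81, a tetraspanin gene in the Igf2 cluster, had a log2 ratio of 1.5 in Tag-seq and -0.11 in RNA-seq. Phlda2, a growth-restraining gene transcribed from the maternal copy in the same cluster, had 15 counts in VMP and 258 in SU by Tag-seq, but 0 and 1 by RNA-seq, and a read in 1 of all cells. Sgce, which encodes epsilon-sarcoglycan, had 2.01 and 0.18, and Dcn, which encodes the matrix proteoglycan decorin, had 1.65 and -0.07. Cd81, Sgce and Dcn were thus called higher in VMP in Tag-seq and not in RNA-seq. Zdbf2, a paternally expressed gene, had -0.05 in Tag-seq with 16 counts in each library and 3.29 in RNA-seq.

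In the IGF axis 6 other genes of 27 listed had an identifier. In Tag-seq 3 of 6 were called higher in VMP (8.74% of all genes) and 1 in SU (13%), with a median log2 ratio of 0.65 against -0.02 over all genes. In RNA-seq 0 of 6 were called higher in VMP (10.4% of all genes) and 3 in SU (11.8%), with a median of -0.96 against 0.02. Igf1, the other ligand gene, had 380 CPM in VMP and 95.4 CPM in SU by Tag-seq (log2 ratio 1.99) and 2203 and 1956 counts by RNA-seq (0.64, q of 0.735, not called). Igf1r, the receptor that answers both ligands, was higher in SU, at 6.36 and 15.7 CPM in Tag-seq (-1.30) and 15.2 and 62.1 CPM in RNA-seq (-2.02). In single cells, however, Igf1r averaged 90.3 CPM in VMP and 83.6 CPM in SU (0.11). Igf2 thus lay toward VMP in all 3 assays, and Igf1r toward SU in the bulk libraries.

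Igfbp2, which encodes a binding protein that holds IGFs in the extracellular space, had -0.55 in Tag-seq, where it was not called, and -3.31 in RNA-seq, where it was, and reached 10 reads in 4 of 49 VMP and 41 of 66 SU cells. Pappa2, a protease gene whose product cleaves IGF binding proteins, had -0.24 and -2.74, with 10 reads in 6 VMP and 22 SU cells. Htra1, another secreted protease gene, had 1.92 and 0.09, and Igfbp7 1.55 and 0.68, each called in Tag-seq alone.

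**Figure D5:**
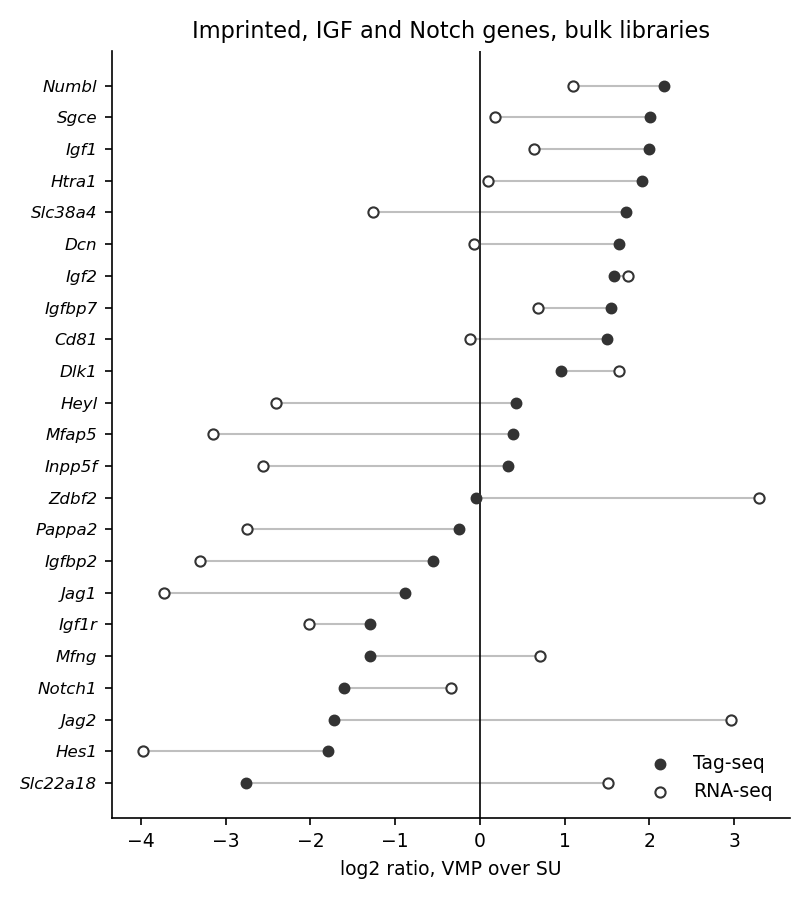
Log2 ratio of VMP over SU for the 23 imprinted, IGF and Notch genes tested in both bulk assays, with filled points for Tag-seq, open points for RNA-seq, and genes ordered by Tag-seq. Igf2 has nearly the same ratio in both (1.58 and 1.74), while Jag2 and Zdbf2 lie far apart. The RNA-seq ratio of Jag2 rests on 8 counts in VMP and 1 in SU and was not called.

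In the Notch lists 9 other genes of 36 had an identifier. In Tag-seq 1 of 8 tested was called higher in VMP, beside 8.74% of all genes, and 4 in SU, beside 13%, with a median log2 ratio of -1.09 against -0.02 over all genes. In RNA-seq 0 of 9 were called higher in VMP, beside 10.4% of all genes, and 5 in SU, beside 11.8%, with a median of -2.40 against 0.02. The canonical ligand Jag1 had -0.88 (q of 0.838, not called) and -3.73 (called), and averaged 265 CPM in VMP and 1305 CPM in SU cells, a direction opposite to that of Dlk1. The receptor gene Notch1 had -1.60 (called) and -0.34 (not called). Hes1, a target gene of Notch signalling, had 80.3 CPM in VMP and 278 CPM in SU by Tag-seq (-1.79) and 3.17 and 51.5 CPM by RNA-seq (-3.98), and reached 10 reads in 12 of 49 VMP and 62 of 66 SU cells. Heyl, a related target, had 0.42 (not called) and -2.40 (called). Numbl, which encodes a Numb-like adaptor, was the 1 gene called higher in VMP, at 2.18 in Tag-seq, with 1.10 in RNA-seq. In single cells its direction was the opposite, with a mean of 8.08 CPM in VMP and 20.9 CPM in SU. It reached 10 reads in 4 VMP and 10 SU cells.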

How the data were processed

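The files deposited by the authors hold raw read counts for each Ensembl gene in Tag-seq, RNA-seq and single cells. Per the methods and the submitters' processing notes, Tag-seq reads were aligned to Rnor_6.0 with Bowtie2 and counted with summarizeOverlaps. Single-cell reads were trimmed (Trimmomatic 0.33), aligned (TopHat), cleared of duplicates (Picard 1.128) and counted (HTSeq). For bulk RNA-seq only the tools are listed. The strand setting of the counting was not given in the sources used here, so antisense reads at Igf2 cannot be told apart. RNA-seq pools are described with 2 different cell numbers.

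Groups follow the tissue and assay of each label. Gene rows alone entered library sizes, and 95 spike-in rows were kept apart. No column of sample values was left unused. DE calls followed NOISeq without replicates, rewritten in Python 3.11.15 with NumPy 2.4.6, pandas 2.3.3 and SciPy 1.17.1. Counts were TMM-scaled, and a gene was tested if either library exceeded a CPM of 1. Noise came from 5 libraries simulated for each tissue (20% of the depth, variability 0.02), zeros became 0.5, and the limit was a q of 0.9. Log2 ratios had 0.5 counts added. Fits over the 4 bulk libraries used DESeq2 1.42.0 and edgeR 4.0.16 under R 4.3.3. Intervals are at 95% and cover counting error only. The calls, fits and cell summaries were tested on simulated data, where the DESeq2 fit, with 1 residual degree of freedom, called too many unchanged genes. Figures used matplotlib 3.10.9.

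Symbols and Rnor_6.0 positions came from the DE tables of the study, which pair 2995 identifiers with symbols in the parts used here. Upstream sequences came from RefSeq (GRCr8). The text names Igf2, Dlk1, list genes called in both assays or among the 6 most abundant of a list in Tag-seq, and the 5 genes most alike to each over cells, among genes with reads in at least 20 cells and at least 10 of each tissue. Members and lists were chosen with earlier results of these data known. Because of the missing symbols, 80% of members were matched only for the epithelial (10 of 11) and skeletal muscle (9 of 10) lists, and the medians of the other lists describe a chosen remainder.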

Additional observations from a re-analysis of the deposited data

How the results depend on the processing

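Over 22 results, 69 values were recomputed under other settings. No log2 ratio or correlation changed sign. Of the values, 50 were labelled as the same and 19 as moved. The limit was the interval or spread of the reported value, but for numbers of calls and CVs a set fold change. The 50 thus include 1840 Tag-seq calls against 2648, with a limit on the log2 ratio added. They also include a CV of Dlk1 in SU cells of 4.08 against 2.95, with spike-in scaling. Total counts in place of TMM gave log2 ratios of 1.69 and 1.95 for Igf2 and 1.07 and 1.85 for Dlk1 (Tag-seq and RNA-seq), as the median over all genes went from -0.02 to 0.09 and from 0.02 to 0.23. They also cut the SU share of calls from 53.2% to 41.7% in RNA-seq and from 59.7% to 52.4% in Tag-seq. A q of 0.95 left 1220 calls of 2648 in Tag-seq and 2049 of 3930 in RNA-seq, without either gene. In cells, spike-in scaling gave 1.20 for Igf2 and 2.81 for Dlk1, while the median over 1432 abundant genes went from 0.08 to -0.28. Leaving out the highest cell of each tissue gave 1.66 and 3.66, the 47 VMP and 64 SU cells within 3 median absolute deviations gave 1.57 for Igf2, and medians over cells gave 2.99 for Igf2 (none for Dlk1, whose SU median is 0). At 10 reads the shares fell to 53.1% (VMP Dlk1), 46.9% (VMP both), 63.6% (SU Igf2), 18.2% (SU Dlk1) and 16.7% (SU both), and thinning left 80.3% (SU Igf2) and 24.2% (SU both). Apart from total counts, where all genes shifted, and the stricter limits, which demand more by construction, the cause was not tested. No paired analysis was possible because the replicate numbers of the labels pair no samples: each bulk assay has 1 library per tissue, and cell numbers only name positions on separate captures. The fit with assay as a blocking term pairs the tissues by assay instead.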

Other observations

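Dlk1 is known to restrain adipocyte formation. Of 9 genes listed for that process, 5 had an identifier. In Tag-seq all 5 were called higher in SU, where 13% of all genes tested were, with a median log2 ratio of -2.23 against -0.02 over all genes. In RNA-seq 3 of 4 tested were called higher in SU, where 11.8% of all genes were, and Fabp4 was not (log2 ratio 0.10). The study chose these genes as DE on these libraries, so the direction is not independent evidence. Pparg, the master regulator of fat cells, had 38 counts in VMP and 378 in SU by Tag-seq but 2 and 1 by RNA-seq, and 2 SU cells held a read. Fabp4, which encodes a fatty acid carrier also made by capillaries, had 407 and 2150 counts by Tag-seq and 10 and 13 by RNA-seq, and had a read in 2 VMP and 0 SU cells. Lpl, which encodes lipoprotein lipase, had log2 ratios of -1.80 and -3.13, and a read in 24 of 66 SU cells and 0 of 49 VMP cells. Cebpb, which encodes an early adipogenic factor, had -1.49 in Tag-seq and 1 count in VMP against 32 in SU in RNA-seq. Sox9, a gene of cartilage and epithelial progenitors that also holds back adipocyte formation, had -2.23 and -1.57.

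Myf5, a gene of committed skeletal muscle precursors, reached 10 reads in 11 SU cells and 0 VMP cells. This gene was picked after its values were seen, so what follows is a description. Among the 11 SU cells, Igf2 reached 10 reads in 10 (90.9%, exact 95% interval 58.7 to 99.8) and Dlk1 in 6 (54.5%, 23.4 to 83.3), and among the other 55 in 32 (58.2%, 44.1 to 71.3) and 6 (10.9%, 4.11 to 22.2). The median Igf2 level was 524 CPM in the 11 and 60.6 CPM in the other 55. Cells were also split at 10 reads of the muscle gene Des, the cell cycle gene Cenpf and the endothelial genes Cdh5 and Kdr. In SU, Dlk1 reached 10 reads in 3 of 7 cells with Des (42.9%) and 9 of 59 others (15.3%). For Cenpf it did in 8 of 38 and 4 of 28 others, for Cdh5 in 2 of 14 and 10 of 52, and for Kdr in 2 of 15 and 10 of 51. The summed level of the 9 skeletal muscle genes with an identifier had a Spearman's rho of 0.356 with Igf2 and 0.364 with Dlk1 over the 66 SU cells. Over the 49 VMP cells it was -0.456 and -0.359. In VMP cells, however, the sum averaged 128 CPM, of which Tnnc2 made 104 CPM, and 3 of the 9 genes were at 0 in every cell. Myf5 had a read in 1 VMP cell, so the VMP values do not describe muscle cells. In SU cells the sum averaged 141 CPM, of which Tnnc2 made 40.7 CPM and Myf5 33.1 CPM. Chrna1, another of the 9 genes, had a read in 47 of 49 VMP and 57 of 66 SU cells. Whether the sum marks muscle cells in SU was not tested. Cells of a tissue share their pool and chip. The other 6 of the 12 SU cells with Dlk1 had fewer than 10 Myf5 reads.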
